A study of Mus musculus with 14 samples.

Results

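A set of 7 genes that mark eosinophils were followed across purified mouse blood cells: Prg2, Prg3, Epx, Ear1, Ear2, Il5ra and Ccr3. They were taken by symbol and made up 7 of the 20284 genes that could be named on the arrays, with 1 probe each of 55681. No group of the series was sorted as eosinophils, so the genes were read in progenitors, dendritic cells and neutrophils. Each of 7 groups had 2 single-colour arrays, all from C57BL/6 mice, whose age and number per array were not given in the labels. Bone marrow neutrophils (Neu) were wild type and gated on CD11b and high Ly6G. Granulocyte-monocyte progenitors (GMP) of the marrow came from mice labelled IRF8KO and from wild-type (WT) mice, in both cases gated on CD117 and CD16/32 and lacking CD115, Sca-1, IL-7R and the lineage markers. The labels do not describe the IRF8 allele. The remaining groups were wild type. Common dendritic cell progenitors (CDP) of the marrow had intermediate CD117 with CD115 and CD135, and precursors of classical dendritic cells (pre-cDC) of the marrow had CD11c, CD135 and CD172a without MHC class II. Splenic classical dendritic cells (cDC) carried CD11c and MHC class II with CD4 in 1 group and CD8 in the other. The CD4+ cDC were purified on magnetic beads alone and the Neu by flow cytometry alone, whereas the other groups went through both.

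Eosinophils are granulocytes whose granules hold toxic basic proteins and ribonucleases. Their growth and survival depend on interleukin 5, and CC chemokines called eotaxins draw them into tissue through the receptor CCR3. In the marrow they descend from myeloid progenitors in which GATA and C/EBP transcription factors act together, and the granule genes are switched on early in that path. Major basic protein is encoded by Prg2, its homologue by Prg3 and eosinophil peroxidase by Epx. The ribonucleases of mouse eosinophils come from a multigene family to which Ear1 and Ear2 belong. Il5ra encodes the alpha chain of the interleukin 5 receptor, which signals together with the beta chain Csf2rb.

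The sequence just before the start of 5 of the genes is shown because the genes fell into separate patterns on the arrays. Each is the 250 bases upstream of the start site that the RefSeq promoter set (GRCm38.p6) uses for the gene, read 5′ to 3′ on the gene's strand. That site is the outer start of the gene record for Epx, Ear1, Ear2 and Il5ra, whereas for Prg3 it lies 19 bases inside the record, so the Prg3 window includes those bases. RefSeq promoters were matched for 6 of the 7 genes, all but Prg2. In Prg3 (chr2:84987965-84988214, plus strand), Epx (chr11:87875537-87875786, minus strand) and Il5ra (chr6:106749038-106749287, minus strand), capitals mark each GATAA or its reverse complement TTATC, the core letters that GATA factors bind.
Prg3: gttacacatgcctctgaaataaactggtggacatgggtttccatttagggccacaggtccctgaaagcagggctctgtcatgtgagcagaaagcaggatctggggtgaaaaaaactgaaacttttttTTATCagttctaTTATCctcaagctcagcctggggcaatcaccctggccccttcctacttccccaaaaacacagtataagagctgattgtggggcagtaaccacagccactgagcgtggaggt
Epx: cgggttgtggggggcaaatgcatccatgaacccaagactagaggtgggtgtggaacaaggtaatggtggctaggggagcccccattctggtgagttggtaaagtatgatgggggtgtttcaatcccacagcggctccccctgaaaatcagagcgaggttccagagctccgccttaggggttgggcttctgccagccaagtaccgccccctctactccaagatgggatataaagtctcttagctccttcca
Il5ra: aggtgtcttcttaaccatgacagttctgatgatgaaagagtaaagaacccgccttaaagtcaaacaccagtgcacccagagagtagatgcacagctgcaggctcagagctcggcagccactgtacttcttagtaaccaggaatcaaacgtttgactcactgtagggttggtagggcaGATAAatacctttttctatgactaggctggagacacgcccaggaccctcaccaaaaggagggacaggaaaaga
Prg3 held 2 matches, beginning 123 and 111 bases before the start site used, Il5ra held 1 that began 73 bases before it, and Epx held none. The windows of Ear1 and Ear2 held none. For Ccr3 the start site used lies 4146 bases inside the gene record, and the window before it, which is within the gene, held 1 match that began 29 bases before that site. Of the 32851 RefSeq promoters of the same window, 22.6% held at least 1 match, so the letters alone are common. A C/EBP pattern (TTNNGNAA or its reverse complement, N being any base) was sought in the same windows. It had 1 match each in Prg3, Ear1, Ear2 and Ccr3 and none in Epx or Il5ra, beside 36.8% of all those promoters. The 2 ribonuclease promoters, Ear1 (chr14:43819640-43819889, minus strand) and Ear2 (chr14:44102404-44102653, plus strand), are shown with the bases that differ between them in capitals.
Ear1: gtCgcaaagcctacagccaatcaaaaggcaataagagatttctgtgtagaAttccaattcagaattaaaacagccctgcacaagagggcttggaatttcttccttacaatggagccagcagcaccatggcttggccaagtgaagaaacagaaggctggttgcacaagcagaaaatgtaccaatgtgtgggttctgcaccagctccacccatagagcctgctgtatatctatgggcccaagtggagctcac
Ear2: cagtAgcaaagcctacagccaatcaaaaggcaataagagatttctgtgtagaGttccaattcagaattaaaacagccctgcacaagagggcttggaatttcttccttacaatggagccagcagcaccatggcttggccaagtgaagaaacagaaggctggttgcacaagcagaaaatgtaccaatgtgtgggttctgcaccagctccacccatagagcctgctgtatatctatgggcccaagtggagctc
The 2 were identical at 246 of 248 aligned bases (99.2%), with no gap. Ear10, another member of the family, shared 93.5% of aligned bases with Ear1 in the same window and 93.9% with Ear2.

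Levels are given as the log2 of the processed signal minus the array's 75th percentile, so 0 is that percentile. They are compared within a gene only, except in the summed levels of a list, which its brightest genes lead. The 75th percentile itself was 77.4 to 516 units of processed signal on the 12 arrays of the larger design, lowest on the CDP arrays, and 39.4% to 53.7% of their probes were well above background. The arrays of CD4+ cDC had fewer probes, shared a slide with no other group and entered no test. A slide held the IRF8KO-labelled and the WT GMP, and another the Neu and CD8+ cDC, so that these comparisons lay within 1 slide. For CDP against WT GMP, pre-cDC against CDP, CD8+ cDC against pre-cDC and Neu against WT GMP, slide and group cannot be told apart. Nothing in the labels says that the 2 arrays of a group came from separate mice, so p-values measure the spread between these arrays, which may be technical. The neutrophil list stood where the labels put it. Its summed level was 10929 to 11924 on the Neu arrays and at most 56.7 on the other arrays of the larger design. In the authors' deposited table (log2 of the intensity) Clec4a4, a gene of CD4+ cDC, averaged 14.20 in CD4+ cDC and 6.39 in CD8+ cDC. Xcr1, a gene of CD8+ cDC, averaged 3.57 in CD4+ cDC and 11.74 in CD8+ cDC. On the cDC2 list (CD4+ cDC) 4 of 4 genes were more than 1 log2 unit higher in CD4+ cDC. On the cDC1 list (CD8+ cDC) 3 of 4 were lower by that limit, but Batf3 had 14.74 in CD4+ cDC and 14.49 in CD8+ cDC. Cd4 itself averaged 13.05 in CD4+ cDC, 11.41 in CD8+ cDC and 11.72 in Neu. The Irf8 probe went against its label, at 6.19 in IRF8KO-labelled GMP and 4.83 in WT GMP (means, n = 2 each). Where that probe lies relative to a deletion was not determined here, so it does not check the genotype, and the samples are called IRF8KO-labelled.

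**Figure D1:**
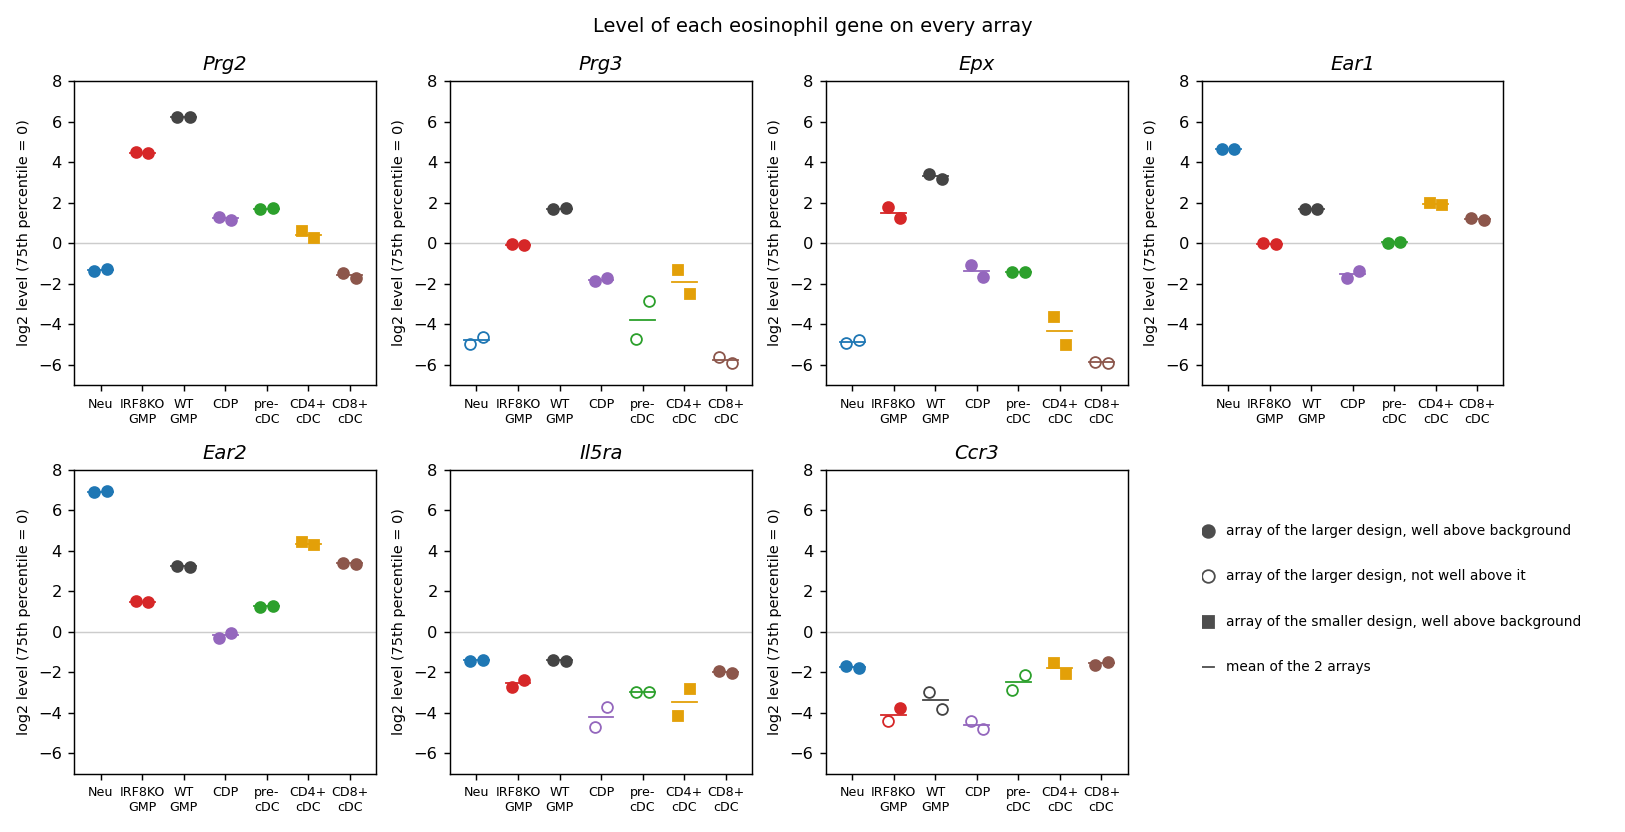
Log2 level of the 7 genes on each array (0 is the array's 75th percentile), by group, with filled points well above background, open points not well above it, squares for the CD4+ cDC arrays of the smaller design, whose percentile is taken over other probes, and a bar at the mean of 2 arrays. Prg2, Prg3 and Epx peak on the WT GMP arrays, Ear1 and Ear2 on the Neu arrays.

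Among the granule protein genes, levels were highest in WT GMP. Prg2 had 4.48 and 4.43 in IRF8KO-labelled GMP, against 6.20 and 6.24 in WT GMP. It had 1.30 and 1.14 in CDP and 1.69 and 1.72 in pre-cDC. In CD8+ cDC it had -1.47 and -1.70, and in Neu -1.40 and -1.28. All 14 arrays measured it well above background, and none of the 6 groups of the larger design overlapped, with Neu and CD8+ cDC lowest and next to each other. The share of all genes that kept these 6 groups apart was not counted. Epx had 1.78 and 1.24 in IRF8KO-labelled GMP, against 3.42 and 3.15 in WT GMP. It stood at -1.06 and -1.64 in CDP and at -1.43 and -1.40 in pre-cDC, where the groups overlapped. On the Neu and CD8+ cDC arrays Epx was not well above background. Prg3 had -0.06 and -0.11 in IRF8KO-labelled GMP, against 1.69 and 1.72 in WT GMP, and -1.88 and -1.71 in CDP. On the arrays of pre-cDC, CD8+ cDC and Neu it was never well above background.

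The ribonuclease genes had another order, with Neu at the top. Ear2 had 6.88 and 6.94 in Neu, 1.53 and 1.47 in IRF8KO-labelled GMP and 3.24 and 3.22 in WT GMP. Along the dendritic series it had -0.29 and -0.07 in CDP, 1.22 and 1.29 in pre-cDC and 3.42 and 3.35 in CD8+ cDC. No 2 of these 6 groups overlapped, with CDP lowest, but the share of all genes that separated in this way was not counted. Ear1 had 4.63 and 4.62 in Neu, -0.01 and -0.05 in IRF8KO-labelled GMP and 1.70 on both arrays of WT GMP. It had -1.71 and -1.36 in CDP, 0.01 and 0.07 in pre-cDC and 1.22 and 1.13 in CD8+ cDC, again without overlap, although pre-cDC and IRF8KO-labelled GMP lay next to each other. The 2 probes were well above background on every array. Sequences of the probes were not used here, and members of this family are near-identical copies, so signal of Ear1, Ear2 and their relatives may be shared and each value is uncertain as a measure of 1 gene.

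Each receptor gene was not well above background in some groups. Il5ra, the interleukin 5 receptor alpha chain, had -1.43 and -1.39 in Neu, -2.72 and -2.36 in IRF8KO-labelled GMP and -1.37 and -1.42 in WT GMP. It had -1.94 and -2.03 in CD8+ cDC, and it was not well above background in CDP or pre-cDC. Ccr3, the eotaxin receptor, had -1.68 and -1.76 in Neu and -1.62 and -1.49 in CD8+ cDC. The arrays of Neu and WT GMP overlapped for Il5ra, while for Ccr3 the Neu arrays lay just under those of CD8+ cDC. It was well above background on 1 of 2 arrays of IRF8KO-labelled GMP and on none of WT GMP, CDP or pre-cDC.

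As a description over the 12 arrays of the larger design, with low levels set to each array's floor, the genes did not move as 1 set. Prg2 correlated with Epx at r = 0.988 and with Prg3 at r = 0.952, and Ear1 with Ear2 at r = 0.993. Between the sets the correlation of Prg2 with Ear1 was -0.308. Il5ra correlated with Ear1 at 0.862 and with Ear2 at 0.857. Ccr3 correlated with Prg2 at -0.877, with Prg3 at -0.826 and with Epx at -0.849. Both receptor genes were near or under the floor in several groups. The 12 points share slides and come from 6 groups. By Pearson's r over 6 group means, the 5 genes most like the mean of all 7 were Sdsl (0.977), Perp (0.965), Gclm (0.964), Gzmb (0.963) and Fgf3 (0.959), among 7845 genes ranked. A pair of further rankings were added after these values were seen. The mean of Prg2, Prg3 and Epx was most like Gata2 (0.996), Itga2b (0.995), Rnase12 (0.994), Samd14 (0.993) and Gata1 (0.991). The mean of Ear1 and Ear2 was most like Ear10 (0.994), Rnase2a (0.989), Prkab1 (0.985), Stx2 (0.982) and Slc40a1 (0.975).

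**Figure D2:**
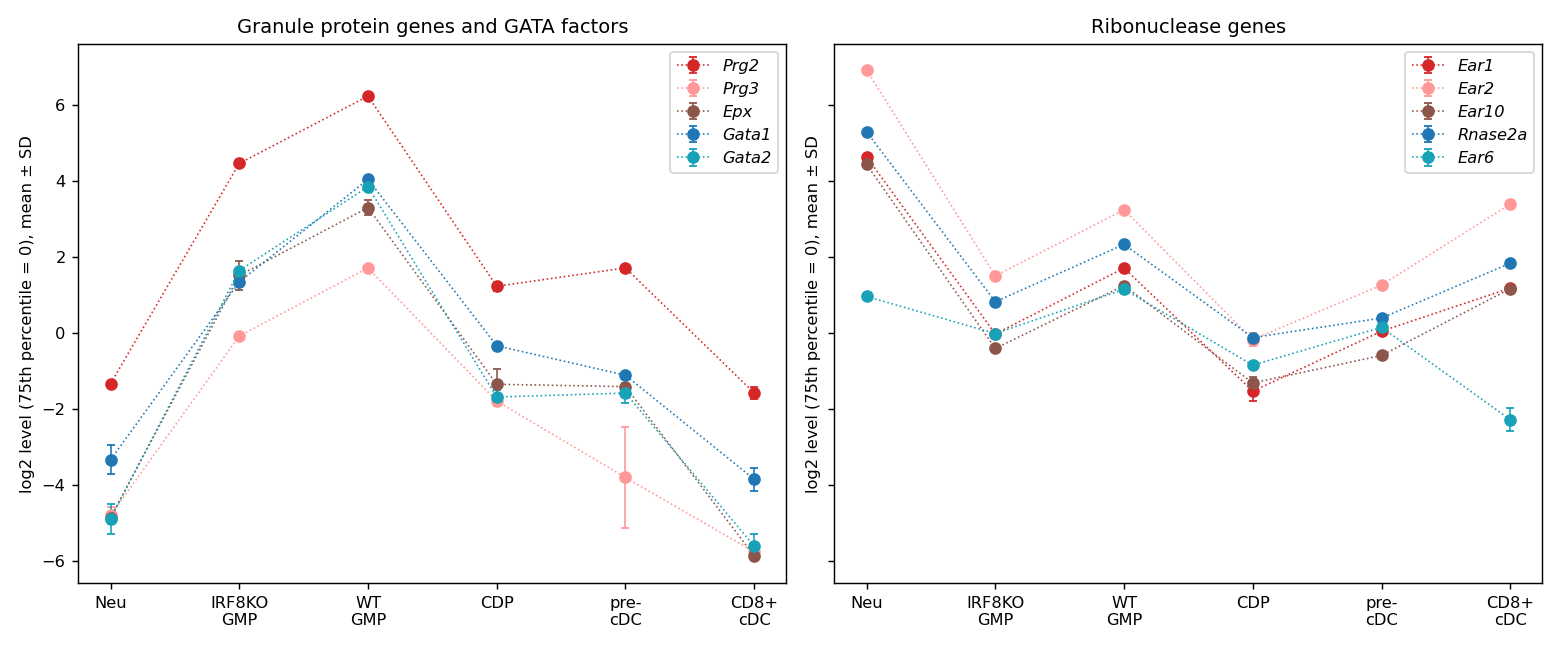
Mean log2 level with the SD of 2 arrays (0 is the array's 75th percentile) in the 6 groups of the larger design, for the granule protein genes with Gata1 and Gata2, which were chosen for their likeness after the values were seen (left), and for 5 ribonuclease genes (right). Prg2, Prg3 and Epx are highest in WT GMP and Ear1, Ear2, Ear10 and Rnase2a in Neu, where Ear6 stands at 0.95 against 1.14 in WT GMP.

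The comparison of IRF8KO-labelled with WT GMP asked how the genes differ between GMP under these 2 genotype labels. Every gene of the group that could be tested was lower in IRF8KO-labelled GMP: 6 of 6, at a Benjamini-Hochberg adjusted p under 0.05 in limma. Among all 12156 genes tested 20.6% were called, and 8.14% were called lower. Of the 6 changes, 5 were close in size. The granule protein genes fell by 1.77 ± 0.10 (Prg2), 1.79 ± 0.51 (Prg3) and 1.78 ± 0.23 (Epx) on the log2 scale (SE, n = 2 each), which is 3.41-fold, 3.46-fold and 3.44-fold lower. The ribonuclease genes fell by 1.73 ± 0.11 (Ear1) and 1.73 ± 0.09 (Ear2), 3.33-fold lower for both. Il5ra fell by 1.15 ± 0.27, or 2.22-fold lower. Limma's adjusted p was 3.49e-05 for Prg2, 0.00166 for Epx, 6.93e-05 for Ear1 and 2.62e-05 for Ear2. The median change of the 6 genes was -1.75, against 0.04 over all genes tested. The call of Prg3 (adjusted p = 0.0459 in limma) was lost without any 1 of the 4 GMP arrays (0.150 to 0.162), and that of Il5ra (0.0244) likewise (0.0546 to 0.137). In the fit of these 4 arrays alone, all on 1 slide, limma's adjusted p of the 6 genes was 0.00881 to 0.0444. Ccr3 was not tested. In bulk cells a lower level from fewer eosinophil-fated cells and from less RNA per cell cannot be told apart.

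**Figure D3:**
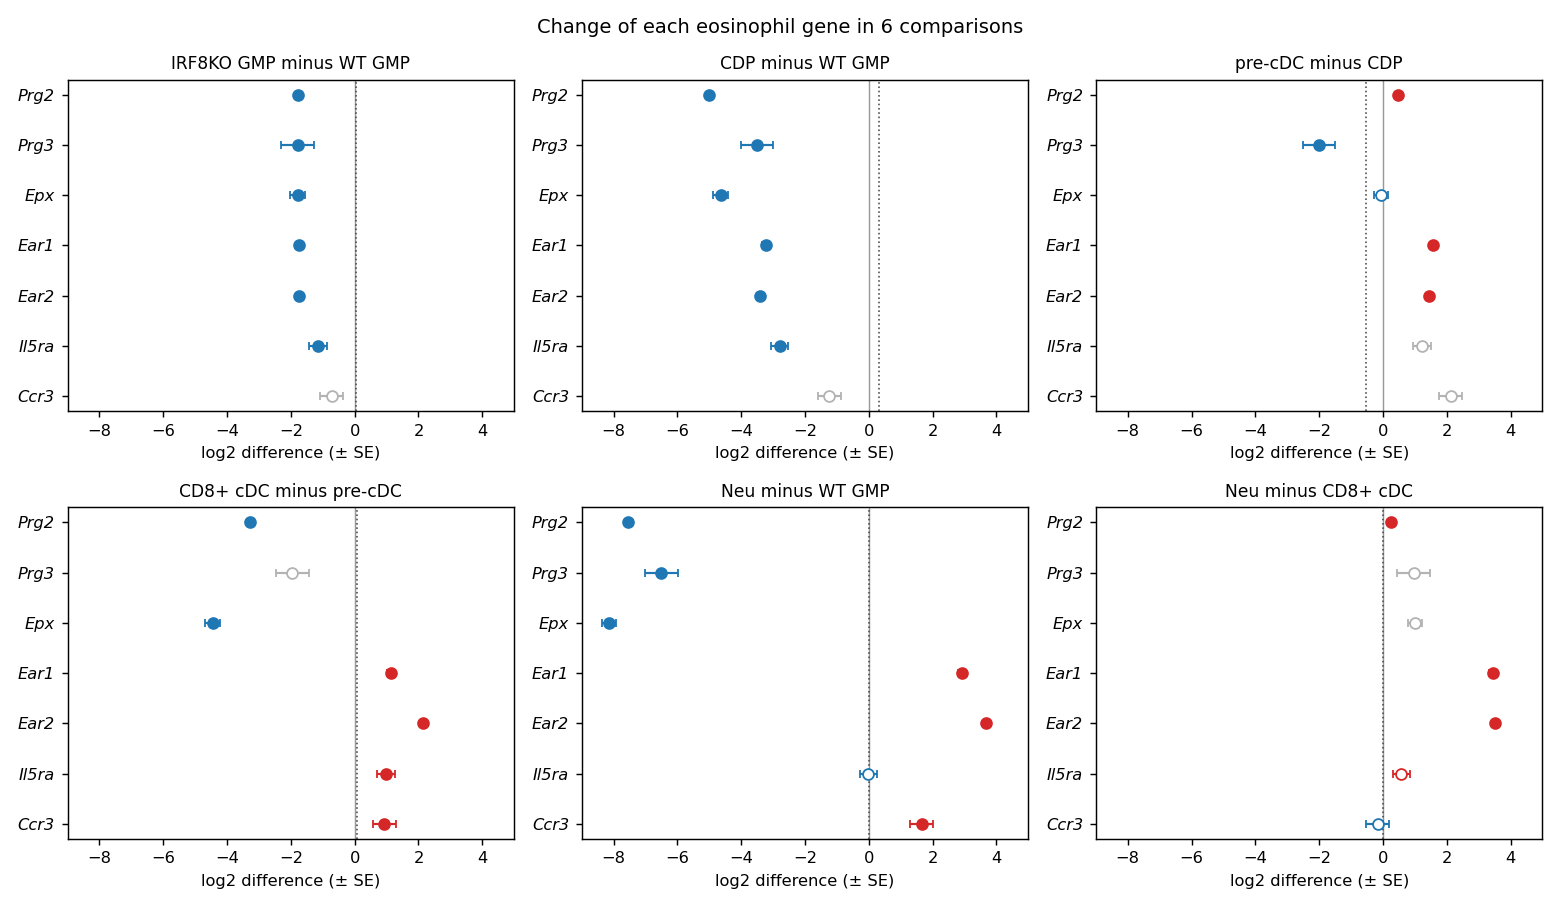
Log2 difference of each gene with its SE in 6 comparisons, the first-named group minus the second. Filled points passed limma's test at an adjusted p under 0.05, open coloured points did not, grey points were not tested, and the dotted line is the median of all genes tested. Prg2, Prg3, Epx, Ear1 and Ear2 lie between -1.79 and -1.73 in IRF8KO-labelled minus WT GMP.

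Relatives and partners of these genes gave the setting. Of 6 tested genes on the list of other eosinophil genes, 3 fell in IRF8KO-labelled GMP and 3 did not pass (list median -0.66). Those that fell were the ribonucleases Ear10 (-1.65 ± 0.08), Rnase2a (-1.51 ± 0.07) and Ear6 (-1.16 ± 0.13). Siglecf, a lectin of the eosinophil surface, had a change of -0.15 ± 0.14 (limma's adjusted p = 0.495). On the list of cytokine receptor chains and ligands 3 of 4 tested genes rose and none fell. They were Il3ra (0.55 ± 0.13), Csf2ra (0.47 ± 0.08) and Csf2rb (0.28 ± 0.07), the last being the partner chain of Il5ra. Among 13 transcription factors 5 rose and 3 fell. The list includes Irf8, whose probe stood at 6.19 in IRF8KO-labelled GMP and 4.83 in WT GMP and does not check the genotype. The 3 that fell were Gata1 (-2.69 ± 0.19), Gata2 (-2.20 ± 0.23) and Zfpm1 (-1.64 ± 0.11), which encodes a cofactor of GATA factors. Cebpa (0.72 ± 0.08) and Cebpb (0.91 ± 0.12) were among those that rose. Cebpe, a factor of granulocyte maturation, stood at 5.45 in IRF8KO-labelled GMP and 5.47 in WT GMP. The CCR3 ligands had 1 tested gene, Ccl5, which did not pass.

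Markers of other cells moved in the same comparison. On the basophil and mast cell list 9 of 10 tested genes fell (median -2.17, or -1.64 with bounds in place of fitted changes), among them the IgE receptor chain Fcer1a (-4.09 ± 0.17) and the protease Mcpt8 (-1.21 ± 0.11). On the red cell and megakaryocyte list 6 of 6 fell (median -3.60). On the neutrophil list 8 of 8 rose (median 2.31, or 1.74 at bounds), on the monocyte and macrophage list 5 of 5, on the dendritic progenitor list 2 of 2, and on the primary granule list 2 of 5. The cDC2 list had 1 of 2 tested genes lower, and no gene of the cDC1 list could be tested. The summed level of the basophil and mast cell list was 65.6 to 67.7 times the array's 75th percentile in IRF8KO-labelled GMP and 154 to 158 times in WT GMP. For the 7 eosinophil genes it was 28.8 to 30.8 times in IRF8KO-labelled GMP and 101 times on both WT GMP arrays. Whether these shifts in other markers have a part in the fall of the eosinophil genes was not tested.

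**Figure D4:**
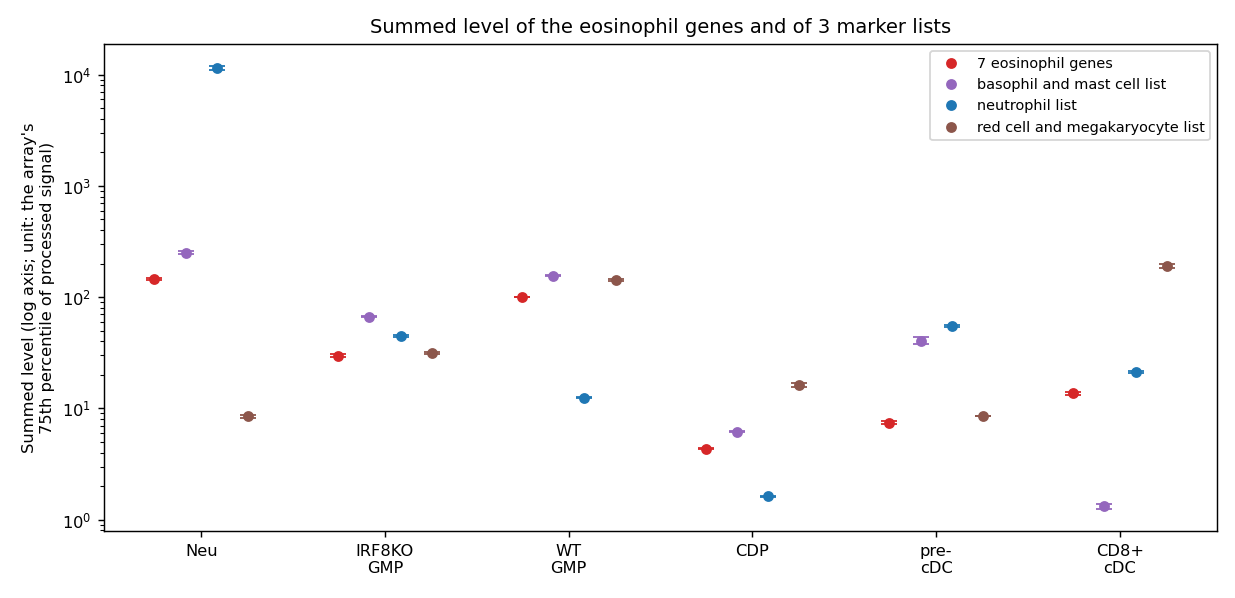
Summed level of the 7 eosinophil genes and of 3 marker lists on a log axis, in units of the array's 75th percentile, by group of the larger design. Marks give the lower and higher of 2 arrays and points their geometric mean. In IRF8KO-labelled GMP the eosinophil, basophil and mast cell, and red cell and megakaryocyte sums lie below those of WT GMP and the neutrophil sum above. The brightest genes lead a sum. In WT GMP these are Prg2 (mean 6.22) for the eosinophil genes and Pf4 (6.57) for the red cell and megakaryocyte list. In Neu, where the eosinophil sum is 144 to 148, Ear2 (mean 6.91) leads it and Prg2 has -1.34.

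The genes that could be tested, all but Ccr3, were lower in CDP than in WT GMP, although the call of Il5ra depended on the background correction. In CDP against WT GMP 6 of 6 tested genes fell, beside 76.5% of all 11899 genes called in either direction, 50.9% higher and 25.6% lower. Prg2 fell by 4.998 ± 0.10 on the log2 scale, 32.0-fold lower, and Epx by 4.64 ± 0.23, 25.0-fold lower (limma's adjusted p = 3.18e-08 and 1.31e-06, n = 2 each). Prg3 fell by 3.50 ± 0.51, Ear1 by 3.24 ± 0.11 and Ear2 by 3.41 ± 0.09. Il5ra was at least 2.97-fold lower in CDP, where no array had it well above background (limma's adjusted p = 4.52e-05). With another background correction its change was 0.08 (adjusted p = 0.401). At-least folds set the brighter group against a floor on each array of the dimmer group, which is the lowest signal well above background there or the probe's own signal, whichever is higher. The median of the 6 genes was -3.46, against 0.31 over all genes, a shift that ran to -0.20 with the percentile of those probes alone that were well above background throughout. The share of calls that were higher was 66.6% in the first setting and 40.3% in the second. Gata1 (-4.37 ± 0.19), Gata2 (-5.53 ± 0.23) and Cebpe (-6.48 ± 0.16) fell too, as did 10 of 10 tested genes of the basophil and mast cell list and 6 of 6 of the red cell and megakaryocyte list. Ear10 (-2.56 ± 0.08), Rnase2a (-2.45 ± 0.07), Ear6 (-1.99 ± 0.13) and Siglecf (-3.28 ± 0.14) were among 5 of 6 other eosinophil genes that fell. Csf2rb rose (0.68 ± 0.07).

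In pre-cDC against CDP the genes split. Of 5 tested, 3 rose and 1 fell, beside 82.8% of all 11481 genes called, 23.2% higher and 59.5% lower. Ear1 rose by 1.58 ± 0.11 and Ear2 by 1.43 ± 0.09 on the log2 scale, 2.98-fold and 2.70-fold higher (limma's adjusted p = 6.07e-06 and 3.00e-06, n = 2 each). Prg2 rose by 0.48 ± 0.10 (limma's adjusted p = 0.00209). Its change was 0.01 with the array median as the scale (adjusted p = 0.927), and its call was lost there. Over the 10 alternatives that kept all arrays the change of Prg2 ran from 0.01 to 1.04 and 9 passed, so its size rests on the scaling. Prg3 was at least 1.91-fold lower in pre-cDC (limma's adjusted p = 0.00703). Epx had a change of -0.06 ± 0.23 and did not pass (limma's adjusted p = 0.810). The median change over all genes was -0.54 here and 0.01 when the percentile came from the probes measured throughout. Relative to the first, the changes were 2.12 for Ear1, 1.98 for Ear2, 1.03 for Prg2, 0.48 for Epx and -1.46 for Prg3. The value of Prg3 is uncertain in size, since it uses pre-cDC signals not well above background (-4.75 and -2.86). The median of the 5 genes was 0.48. Higher calls were 28.1% of all calls in the first setting and 51.2% in the second. Basophil genes moved here as well: 7 of 7 tested genes of that list rose, among them Mcpt8 (2.64 ± 0.11) and Prss34 (3.07 ± 0.12). Their summed level was 38.0 to 43.6 in pre-cDC and 6.12 to 6.24 in CDP. On the neutrophil list 6 of 7 rose. The part of these markers in the rise of Prg2, Ear1 and Ear2 was not tested.

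Between splenic CD8+ cDC and pre-cDC the granule protein genes Prg2 and Epx fell and the ribonuclease genes Ear1 and Ear2 rose, while Prg3 was not tested. Of 6 tested genes 4 rose and 2 fell, beside 73% of 12597 genes called, 39.3% higher and 33.7% lower. Prg2 fell by 3.29 ± 0.10 on the log2 scale, 9.78-fold lower, and Epx was at least 5.23-fold lower (limma's adjusted p = 1.10e-07 and 1.53e-06, n = 2 each). Ear2 rose by 2.13 ± 0.09 and Ear1 by 1.13 ± 0.11, 4.38-fold and 2.19-fold higher. The receptors were not well above background in pre-cDC and rose: Il5ra was at least 1.68-fold higher and Ccr3 at least 1.88-fold higher in CD8+ cDC (limma's adjusted p = 0.0131 and 0.0477). Over the alternatives that kept all arrays, the adjusted p of Ccr3 ran from 0.00921 to 0.373, and 5 of 11 passed. Without pre-cDC replicate 1 its change was 0.56 (adjusted p = 0.252), and without CD8+ cDC replicate 1 or 2 its adjusted p was 0.108 or 0.153. Without CD8+ cDC replicate 1 the adjusted p of Il5ra was 0.0598, and its change was 0.08 with the other background correction (adjusted p = 0.411). The median of the 6 genes was 0.96, or 0.83 at bounds, against 0.08 over all genes. Higher calls were 53.9% of all calls and 66.9% with the array median as the scale. Ear10 rose (1.75 ± 0.08), as did Rnase2a (1.44 ± 0.07), whereas Ear6 fell (-2.43 ± 0.13) and Siglecf was at least 7.87-fold lower in CD8+ cDC. Of the CCR3 ligands both tested genes were called higher, the chemokine Ccl5 by 7.22 ± 0.22 and the eotaxin Ccl24. Ccl24 was not well above background in pre-cDC. Its mean of -2.81 in CD8+ cDC was too low to give an at-least fold, so its rise is uncertain. On the basophil and mast cell list 6 of 7 tested genes fell and the seventh did not pass, and its summed level was 1.24 to 1.39 in CD8+ cDC and 38.0 to 43.6 in pre-cDC.

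Neutrophils against GMP gave the widest split. Of 7 tested genes 3 rose, 3 fell and 1 did not pass, beside 91.6% of 12520 genes called, 45.6% higher and 45.9% lower. Ear2 rose by 3.68 ± 0.09 on the log2 scale and Ear1 by 2.92 ± 0.11, 12.8-fold and 7.58-fold higher in Neu than in WT GMP (limma's adjusted p = 5.51e-09 and 6.70e-08, n = 2 each). Prg2 fell by 7.56 ± 0.10, 189-fold lower (limma's adjusted p = 6.64e-10). Epx was at least 72.6-fold lower and Prg3 at least 24.2-fold lower in Neu. Ccr3 rose to -1.72 in Neu, against -3.37 in WT GMP (means), where it was not well above background (limma's adjusted p = 0.00276). Its own signal exceeded the lowest signal well above background on both WT GMP arrays, so the bound of 3.14-fold equals the measured fold. Il5ra had a change of -0.01 ± 0.27 (limma's adjusted p = 0.960), and 0.40 with the other background correction (adjusted p = 0.00148), so its direction was not settled. The median of the 7 genes was -0.01, against -0.0038 over all genes. Of the relatives, Ear10 (3.19 ± 0.08) and Rnase2a (2.96 ± 0.07) rose, Siglecf fell (-0.63 ± 0.14), and Ear6 did not pass (-0.19 ± 0.13). The beta chains Csf2rb (2.69 ± 0.07) and Csf2rb2 (2.43 ± 0.07) rose. Gata1 was at least 121-fold lower in Neu and Gata2 at least 106-fold lower, while Cebpe rose (3.25 ± 0.16). Marker lists of other cells moved as well: 8 of 8 tested neutrophil genes rose (median 12.94, or 11.96 at bounds), 5 of 5 primary granule genes fell (median -6.28) and 5 of 6 red cell and megakaryocyte genes fell (median -5.11, or -4.90 at bounds). On the basophil and mast cell list 8 of 10 tested genes fell and 2 rose (median -4.54, or -3.54 at bounds), although its summed level was 243 to 259 in Neu and 154 to 158 in WT GMP. The 2 that rose were Hdc (7.94 in Neu and 5.36 in WT GMP) and Tpsb2 (-0.38 in Neu and -1.07 in WT GMP). The part of these shifts in the changes of the eosinophil genes was not tested.

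Neutrophils were also set against CD8+ cDC on the same slide. Of 5 tested genes 3 rose, beside 84.7% of 12817 genes called, 41.3% higher and 43.4% lower. Ear2 rose by 3.52 ± 0.09 and Ear1 by 3.45 ± 0.11 on the log2 scale, 11.50-fold and 10.9-fold higher in Neu (limma's adjusted p = 9.17e-09 and 3.45e-08, n = 2 each). Prg2 rose by 0.25 ± 0.10 (limma's adjusted p = 0.0441), but its change was -0.04 when the percentile came from the probes measured throughout, and 4 of 10 alternatives that kept all arrays passed. Leaving out CD8+ cDC replicate 2, Neu replicate 1 or Neu replicate 2 also ended the call (changes of 0.13, 0.30 and 0.19). Il5ra (0.57 ± 0.27) and Ccr3 (-0.17 ± 0.36) did not pass (limma's adjusted p = 0.0836 and 0.677), Epx and Prg3 were not tested, and the median of the 5 genes was 0.57, against 0.00 over all genes. In the fit of the 4 arrays of this slide alone, Il5ra passed (adjusted p = 0.00797), as it did in 3 of 10 alternatives that kept all arrays. Siglecf was at least 63.1-fold higher in Neu, and Ear10 (3.27 ± 0.08), Rnase2a (3.45 ± 0.07) and Ear6 (3.24 ± 0.13) rose. Comparisons with a group in common share its 2 arrays and are not independent of each other.

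The CD4+ cDC arrays were described from the authors' deposited table, whose columns all have the same sorted values. In the authors' deposited table (log2 of the intensity), Prg2 had 10.10 and 9.75 in CD4+ cDC, against 6.71 and 6.49 in CD8+ cDC. For Prg3 the authors' deposited table gave 8.11 and 6.93 in CD4+ cDC and 3.25 and 3.24 in CD8+ cDC. Every CD4+ cDC array lay above every CD8+ cDC array for both genes. How many of all genes separated in this way was not counted. Epx had 5.89 and 4.72 in CD4+ cDC and 3.08 and 3.24 in CD8+ cDC, and Ear2 14.33 and 14.13 in CD4+ cDC and 11.78 and 11.71 in CD8+ cDC, in the authors' deposited table. The means of Ear1 were 11.50 and 9.53, those of Ccr3 7.62 and 6.62, and those of Il5ra 6.04 and 6.19, each CD4+ cDC first and then CD8+ cDC. With the 75th percentile taken over the probes of both designs, the difference of CD4+ cDC minus CD8+ cDC was 3.104 for Prg2, 4.95 for Prg3, 2.64 for Epx, 1.85 for Ear1, 2.06 for Ear2, 0.85 for Ccr3 and -0.40 for Il5ra. These are descriptions with no test, since array design, slide and purification cannot be told apart from the cell type, and 2 arrays against 2 cannot reach an exact permutation p below 0.333. On the CD4+ cDC arrays a probe could be well above background at a lower level, with 59.7% and 61.4% of probes so marked.

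**Figure D5:**
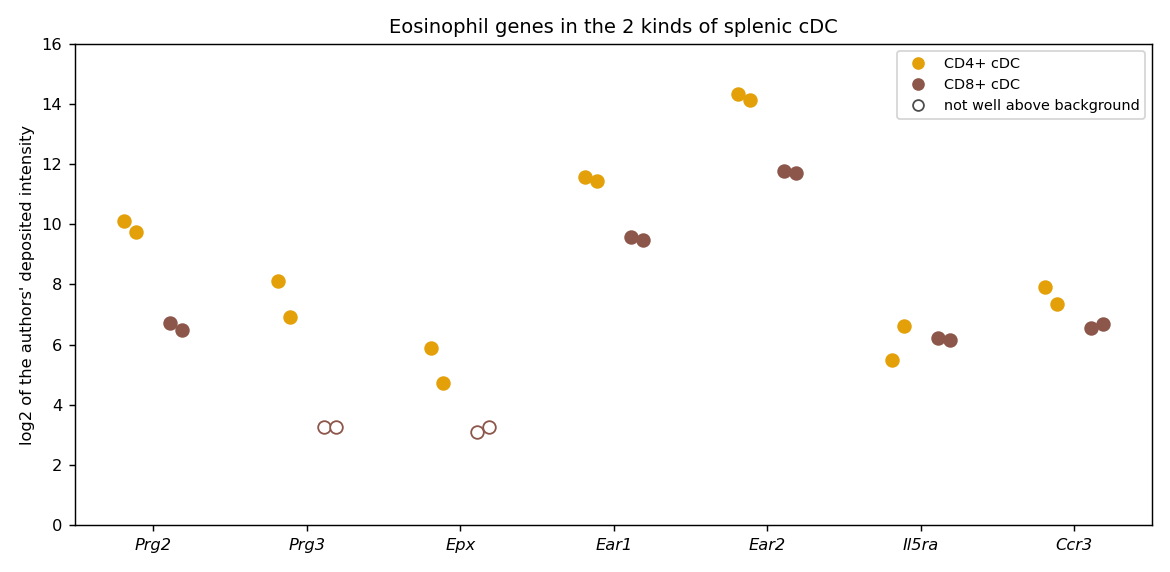
Log2 of the authors' deposited intensity of the 7 genes on each array of CD4+ cDC (left of each pair) and CD8+ cDC (right), with open points not well above background. Prg2, Prg3, Epx, Ear1, Ear2 and Ccr3 lie higher on both CD4+ cDC arrays, and the Il5ra points overlap.

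Several marker lists stood higher on the CD4+ cDC arrays too. Of 20283 named genes in the authors' deposited table, 13.8% had a mean more than 1 log2 unit higher in CD4+ cDC than in CD8+ cDC and 11.5% a mean more than 1 log2 unit lower. By that limit 6 of the 7 eosinophil genes were higher in the authors' deposited table, with Ccr3 just past it, and none was lower. All 7 were well above background on both CD4+ cDC arrays, whereas the shares over all named genes include genes that were not. Of other eosinophil genes 4 of 8 were higher, Siglecf among them at 7.02 in CD4+ cDC and 4.39 in CD8+ cDC, and 1 was lower, Siglece at 10.18 in CD4+ cDC and 11.48 in CD8+ cDC (authors' deposited table). All 7 red cell and megakaryocyte genes and all 8 neutrophil genes in the authors' deposited table were higher. On the monocyte and macrophage list 4 of 5 were higher and 1 lay within the limit (list median 4.38). Of the 13 transcription factors 9 were higher and 3 lower. Gata1 had 8.53 in CD4+ cDC and 4.50 in CD8+ cDC, and Gata2 had 5.58 and 3.30 (authors' deposited table). On the basophil and mast cell list 4 of 12 were higher and 8 lay within the limit, of which Ms4a2 had 3.11 in CD4+ cDC and 3.40 in CD8+ cDC and Mcpt8 had 3.56 in CD4+ cDC and 3.65 in CD8+ cDC (authors' deposited table). Summed intensities in the authors' deposited table were 276609 to 333318 in CD4+ cDC and 46626 to 52439 in CD8+ cDC for the red cell and megakaryocyte list. For the neutrophil list they were 23392 to 30135 in CD4+ cDC and 6804 to 7065 in CD8+ cDC. For the basophil and mast cell list they were 1483 to 1763 in CD4+ cDC and 399 to 436 in CD8+ cDC. Of its 12 genes, 5 were not well above background on either CD4+ cDC array and 9 on either CD8+ cDC array. In CD4+ cDC, Hba-a1 (log2 mean 18.20) led the red cell and megakaryocyte sum and Hdc (10.23) the basophil and mast cell sum. The part of these markers in the levels of the eosinophil genes was not tested.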

How the data were processed

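Sorted cells gave total RNA that was labelled with a low-input kit for Agilent arrays of 1 colour, per the labels' protocols. The deposited scanner values are processed signal intensities from Agilent Feature Extraction 10.7.3.1, per the file headers, with background subtracted in each array and no normalization across arrays. The authors' deposited table holds linear intensities of the same arrays (39429 probes). The sources used here do not say how it was computed. All 14 columns have the same sorted values (median 46.02). Over probes with a single spot they keep their array's order (lowest Spearman correlation 0.999999), which settles direction. Ranks alone do not settle scale. Not every probe follows: Csf2 in pre-cDC averaged 12.58 there, although its level here was -4.57 and not well above background.

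Control spots and outlier spots were dropped, spots of a probe were averaged as log2 processed signal, and the 75th percentile of the array was taken off. A probe was well above background where a share of at least 0.5 of its spots was so marked; no spot was saturated. Accessions were matched to RefSeq (GRCm38.p6, used for names and promoters only), which named 26762 probes and 20284 symbols. The file headers name another build for the probes, so no probe coordinates are given. Of several probes to a gene, the brightest stood for it.

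In R 4.3.3, limma 3.58.1 (lmFit, contrasts, eBayes, two-sided) fitted the 12 arrays with the larger probe set together, for 6 comparisons with 1 variance for each gene shared by all groups (7.32 degrees of freedom in all, 1.32 of them from the prior). Genes entered the Benjamini-Hochberg adjustment if either group compared had them well above background on both its arrays, and calls were made below an adjusted p of 0.05. The fit was tested on simulated data with known changes. Besides the members, the text names up to 4 called genes per list and comparison, largest change first, and the 5 most alike genes; the other genes it names were chosen with their values known. The members and the lists were chosen with earlier results of these data known. The alternatives were other scalings, normexp background correction with an offset of 50 on median signals (mean signals were not used here), other filters and probe rules, the 2 groups alone, a replicate block, and each array left out. Python 3.11.15, pandas 2.3.3, numpy 2.4.6, Biopython 1.88 and matplotlib 3.10.9 gave levels, alignments and plots. The number of arrays and the signal over background limit the precision.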

Additional observations from a re-analysis of the deposited data

Results flagged for a closer look

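The CD4+ cDC arrays enter no comparison. Of the 7 genes, 5 were well above background on both of them and more than 1 log2 unit above both CD8+ cDC arrays. The share of all genes that met this rule was not counted. By means alone, 13.8% of 20283 named genes in the authors' deposited table were more than 1 log2 unit higher in CD4+ cDC. That share counts genes whether or not they were well above background. In the authors' deposited table the log2 means in CD4+ cDC were 9.92 for Prg2, 7.52 for Prg3, 5.31 for Epx, 11.50 for Ear1 and 14.23 for Ear2. The means in CD8+ cDC in the authors' deposited table were 6.60 for Prg2, 3.25 for Prg3, 3.16 for Epx, 9.53 for Ear1 and 11.74 for Ear2. The difference was not tested, since the CD4+ cDC arrays are of another design, on another slide and from cells whose labels name MACS (magnetic) sorting without the FACS step of the CD8+ cDC. Groups of 2 arrays are too small to look for single arrays that stand apart.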

How the results depend on the processing

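The number of genes called was 4 to 6 in IRF8KO-labelled against WT GMP over all alternatives, 5 to 7 in CDP against WT GMP, 3 to 6 in pre-cDC against CDP, 4 to 6 in CD8+ cDC against pre-cDC, 6 to 7 in Neu against WT GMP and 2 to 4 in Neu against CD8+ cDC. Of the values recomputed under an alternative, 448 kept their direction and their side of the threshold, 35 lost the call, 3 gained one and 10 turned direction. Those that turned were changes that had not passed, except Prg2 and, in CDP, Il5ra. With the percentile over probes well above background on all 12 arrays, Epx in pre-cDC minus CDP was 0.50 and Prg2 in Neu minus CD8+ cDC -0.037. With the authors' table, Il5ra in Neu minus WT GMP was 0.15 and Ccr3 in Neu minus CD8+ cDC 0.032. With normexp they were 0.40 and 0.093, and Il5ra in CDP minus WT GMP was 0.083. Leaving out single arrays gave -0.35 to 0.23 for Epx in pre-cDC minus CDP and -0.043 to 0.013 for Il5ra in Neu minus WT GMP. The cause was not tested. In IRF8KO-labelled against WT GMP, Il5ra also lost its call with quantile normalization (adjusted p = 0.104), the authors' table (0.0913) and the array median (0.0513), and Prg3 with the array median (0.0508) and no filter on dim probes (0.0672). Prg3 in pre-cDC minus CDP lost its call in the fit of the 2 groups alone (0.0736). All genes called in IRF8KO-labelled against WT GMP numbered 2509, against 1160 with the array median and 1429 to 1481 without 1 of its arrays.

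The replicate numbers did not pair the arrays: the correlation of the deviations of same-numbered arrays was -0.136 to 0.048 over 8716 genes. With the replicate block the genes called were 5, 6, 4, 5, 6 and 2 in the order of comparisons above, and the calls of Prg3 in IRF8KO-labelled against WT GMP (adjusted p = 0.0552), of Ccr3 in CD8+ cDC against pre-cDC (0.0682) and of Prg2 in Neu against CD8+ cDC (0.0568) were lost. With the numbers of the CD8+ cDC arrays crossed, an alternative chosen after seeing the data, 5 genes were called against pre-cDC. Dim signal is 1 limit: the lowest signal well above background lay 2.65 to 4.41 log2 units below the 75th percentile, and Il5ra, Ccr3, Prg3 and Epx were near or under it in several groups.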
